A study of Mus musculus with 32 samples.

Results

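Retinoic acid is the active form of vitamin A, and 7 genes of its synthesis and response were followed here: Aldh1a1, Aldh1a2, Aldh1a3, Aldh2, Rara, Rbp2 and Dhrs3. The genes were taken by their symbols from 24411 genes of one count table and 24421 genes of another, and all 7 were present in both. Dietary vitamin A enters the enterocyte as retinol, where Rbp2, a cellular retinol-binding protein, holds it for esterification. Retinol is oxidised to retinal and, irreversibly, by the retinaldehyde dehydrogenases Aldh1a1, Aldh1a2 and Aldh1a3, to retinoic acid, which acts through nuclear receptors such as Rara, while Dhrs3 reduces retinal back to retinol. In the gut, retinoic acid is best known for the homing receptors it induces on lymphocytes and for its production by dendritic cells, epithelium and stroma, and Aldh2 is the mitochondrial acetaldehyde dehydrogenase of the wider family.

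The data were RNA-seq read counts from sorted cells of mice in which gut macrophages had been depleted and then replaced by transferred monocytes. The monocyte graft (3 libraries) was sorted from bone marrow of Cx3cr1 GFP/+ CD45.1 donors as Ly6C+ cells, although its labels give the organ as blood, the CD11c-DTR genotype and no DT treatment. The recipients were [CD11c-DTR > WT] bone marrow chimeras on C57BL/6J, whose marrow carried the Itgax-DTR/GFP transgene, a diphtheria toxin receptor under the CD11c promoter, and which received diphtheria toxin (DTx) at 18 ng per g before transfer and 9 ng per g after it. The gut libraries, whose labels give the gate CD45+ CD11b+ CD64+ Ly6C- MHCII+, came from colon at day 4 (3 libraries), day 8 (4) and day 12 (4) and from ileum at day 4, day 8 and day 12 (4 each), and are called the chimera libraries below together with the graft. The study describes this sort differently, as graft-derived cells taken by the donor marker CD45.1 and by GFP, a gate that CD45.2 host cells would not pass and that the labels do not list. A second set of 6 colon libraries came from monocyte transfer into [CX3CR1-DTR > WT] bone marrow chimeras, also on C57BL/6, given DTx at the same doses. These libraries (CX3CR1-DTR colon below) were labelled as GFP-positive cells only. Although from chimeras too, they are not among those called the chimera libraries. The study places them at day 14 and lists fewer repeats than the 6 libraries, all of which were used. Recipients were young adults when irradiated, and donor ages were not given in the sources used here. CD11c and CX3CR1 drive the toxin receptor in dendritic cells as well as macrophages, and nothing says whether a library was 1 mouse or a pool, so that p-values measure the spread between libraries.

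The 25 chimera libraries compared held 591817 to 5228664 reads on genes, and the CX3CR1-DTR libraries 1223772 to 4218027. Values below are normalized reads, meaning reads per 10000000 mapped reads, and 3 reads in a library correspond to 3.51 to 27.7 of them. Genes of other cell types were abundant in the sorted gut cells. The summed level of 15 epithelial genes was 38.8 to 58.9 normalized reads in the graft, 119407 to 190084 in colon and 22112 to 146484 in ileum, and none of the 15 was at 0 in every library of any gut group. The 5 pan-leukocyte genes summed to 44348 to 51852 in the graft, 1138 to 4468 in colon and 2607 to 18334 in ileum, and the 11 macrophage genes to 62624 to 86441, 4841 to 28601 and 12423 to 135593. The macrophage sum was below the graft in every colon library and on either side of it in ileum. In this bulk material fewer cells of a type and less RNA per cell cannot be told apart. The 2 libraries labelled ileum day 4 from the first transfer experiment (replicates 2 and 3) stood apart: their 5 colonic enterocyte genes summed to 25762 and 24091, against 2189 and 2660 in the other ileum day 4 libraries, and their epithelial genes to 146484 and 143541. Results for ileum day 4 are given with and without them.

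Aldh1a1, which makes retinoic acid from retinal, was almost undetected in the graft and present in every colon and ileum library of days 4 to 12. The graft held 2.81, 0 and 0 normalized reads, which is 1 read in all. Colon held 179, 163 and 153 at day 4, 169, 264 and 199 at day 8, and 327, 255, 800 and 247 at day 12. Ileum held 119, 284, 203 and 178 at day 4, 136, 33.7, 171 and 156 at day 8, and 125, 222, 382 and 204 at day 12. Each of these gut libraries exceeded every graft library. The ratio of pooled reads to the graft was 213 at colon day 4, with a 95% counting interval of 37.9 to 8455, and between 160 (ileum day 8) and 600.5 (colon day 12) in the other groups. By edgeR's quasi-likelihood test with Benjamini-Hochberg adjustment over 11842 genes, the log2 fold change from the graft was 7.49 ± 0.94 (SE) at colon day 4 (adjusted p = 4.24e-07) and 7.84 ± 0.93 at ileum day 4 (adjusted p = 2.02e-07, and 7.37 without the 2 libraries that stood apart).

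Aldh1a1 has a closely similar neighbour, Aldh1a7. Only uniquely mapped reads were counted, and whether any reads of the pair were assigned to the wrong gene was not tested. The stretches just before both start sites are shown because they show how alike the pair is even outside the transcribed sequence (NCBIM37, mm9, GENCODE starts, each on its own strand, chr19:20676348-20676450 on the plus strand and chr19:20802054-20802156 on the minus strand), with capitals marking bases that differ or have no partner in the other gene.
Aldh1a1: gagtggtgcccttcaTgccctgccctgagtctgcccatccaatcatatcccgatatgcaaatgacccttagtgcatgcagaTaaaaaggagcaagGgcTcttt
Aldh1a7: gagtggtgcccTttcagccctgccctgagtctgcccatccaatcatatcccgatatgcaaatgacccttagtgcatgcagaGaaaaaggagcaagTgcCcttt
In this best-matching stretch of the 150 bases before each start, 99 of 102 aligned bases were identical (97.1%). Aligned over their whole length, the longest transcripts were 90.4% identical. Their last 500 bases, the end that this 3′-directed library method reads, were 83.5% identical.

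Between colon and ileum at days 8 and 12, Aldh1a7 was called and Aldh1a1 was not, and the 2 genes were not tested against each other. Aldh1a7 was at 0 in the graft, at 71.2 to 145 normalized reads in the colon libraries compared and at 3.3 to 79 in ileum. Colon exceeded ileum by a log2 fold change of 2.19 ± 0.62 at day 8 (adjusted p = 0.0100) and 1.96 ± 0.56 at day 12 (adjusted p = 0.0105, edgeR), with no overlap of libraries. For Aldh1a1 the same differences were 0.41 ± 0.49 (adjusted p = 0.540) and 0.76 ± 0.43 (adjusted p = 0.189), and the libraries overlapped. The test did not separate colon from ileum for Aldh1a1 at day 4 either (-0.35 ± 0.49, adjusted p = 0.734).

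Within colon, the 4 Aldh1a1 values of day 12 (247 to 800) all lay above the 3 of day 4 (153 to 179), a log2 fold change of 1.38 ± 0.49. The edgeR adjusted p was 1, and that comparison called 0 of 11842 genes (0%), with 245 genes at an unadjusted p under 0.05, 1 call by DESeq2 and 0 by the equal-variance test per gene. In ileum the change from day 4 to day 12 was 0.26 ± 0.45 (adjusted p = 0.807). None of the 6 members tested passed in either segment between these days, where 2.30% of all genes were called in ileum. Without ileum day 4 replicate 1, Aldh2 (-1.24, adjusted p = 0.0181) and Rbp2 (2.06, adjusted p = 0.0383) passed in ileum, and without replicate 4 Aldh2 did (-1.22, adjusted p = 0.0313).

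Aldh1a2, the retinaldehyde dehydrogenase characteristic of dendritic cells and stroma, stayed low throughout and fell below the filter for testing (50 normalized reads in at least 3 libraries). It was at 0 in the graft, at 8.96, 8.89 and 10.2 normalized reads at colon day 4, at 3.38, 2.61 and 2.34 at day 8, and at 1.95, 0, 1.22 and 3.3 at day 12. In ileum it was at 29.7, 6.4, 9.22 and 7.13 at day 4, at 27.109, 10.1, 50.2 and 44.2 at day 8, and at 2.26, 37.6, 41.6 and 48.8 at day 12. All 4 ileum libraries of day 8 and 3 of 4 of day 12 exceeded every colon library of the same day. Fitted without the filter, colon minus ileum was -3.76 ± 0.91 at day 8 (adjusted p = 0.00373) and -4.08 ± 0.82 at day 12 (adjusted p = 0.000875, edgeR). The 8 dendritic cell genes summed to 41.8 to 152 normalized reads in colon and 79 to 897 in ileum. The 7 fibroblast genes, of the stroma, summed to 473 to 4710 in colon and 208 to 4691 in ileum. The part of either list in the difference was not tested.

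Aldh1a3, the third retinaldehyde dehydrogenase, was, of the 6 members tested, the one with the largest difference between the segments at days 8 and 12. It was at 0 in the graft. Colon held 8.96, 35.6 and 36.6 normalized reads at day 4, 10.1, 5.22 and 26.9 at day 8, and 11.7, 24.9, 2.44 and 34.6 at day 12. Ileum held 211, 29.9, 0 and 107 at day 4, 192, 43.8, 73.6 and 153 at day 8, and 4.53, 199, 504 and 229 at day 12. At day 8 no colon library reached an ileum library, and at day 12 the groups overlapped through ileum replicate 1 alone. That library had the highest summed macrophage genes of all (135593) and the lowest epithelial (22112) and fibroblast genes (208) in the gut. It was also low for Aldh1a2 and Rbp2.

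The edgeR difference for Aldh1a3, colon minus ileum, was -1.86 ± 1.06 at day 4 (adjusted p = 0.317), -3.17 ± 1.10 at day 8 (adjusted p = 0.0291) and -3.79 ± 0.97 at day 12 (adjusted p = 0.00549). Without the 2 ileum day 4 libraries that stood apart, the day 4 value was -2.69 (adjusted p = 0.0681). Within single transfer experiments the difference in mean log2 normalized reads (with 1 added) kept this sign in every case, from -3.98 to -2.49 at day 12. The day 8 call was lost without colon replicate 2 (adjusted p = 0.0805) or 3 (0.105), or without ileum replicate 1 (0.0672) or 4 (0.0579). By the equal-variance test per gene, on log2 normalized reads with 50 added, neither the day 8 nor the day 12 difference passed (adjusted p = 0.0813 and 0.148). Measured against a floor of 3 reads in each graft library, mean Aldh1a3 was at least 3.77-fold higher at colon day 4, 1.97-fold at day 8 and 2.57-fold at day 12. In ileum it was at least 12.146-fold, 16.1-fold and 32.7-fold higher at the same days, and all 6 comparisons passed the test. The colon calls rested on few reads. At day 4 the call was lost without graft replicate 2 (adjusted p = 0.0517), at day 12 without any 1 graft library or colon day 12 replicate 4 (0.0612 to 0.0833), and at day 8 with the block by transfer experiment (5.33, adjusted p = 0.0684) and without any 1 graft library (0.0846 to 0.106), colon day 8 replicate 2 (0.0513) or replicate 4 (4.52, adjusted p = 0.211), or any 1 of 7 libraries of other groups (0.0503 to 0.0517). The day 8 call was also lost without TMM, edgeR's scaling factor between libraries (adjusted p = 0.0571). The equal-variance test passed neither colon day 8 (adjusted p = 0.106) nor day 12 (0.0923), nor ileum day 4 (0.179) or day 12 (0.0818).

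**Figure D1:**
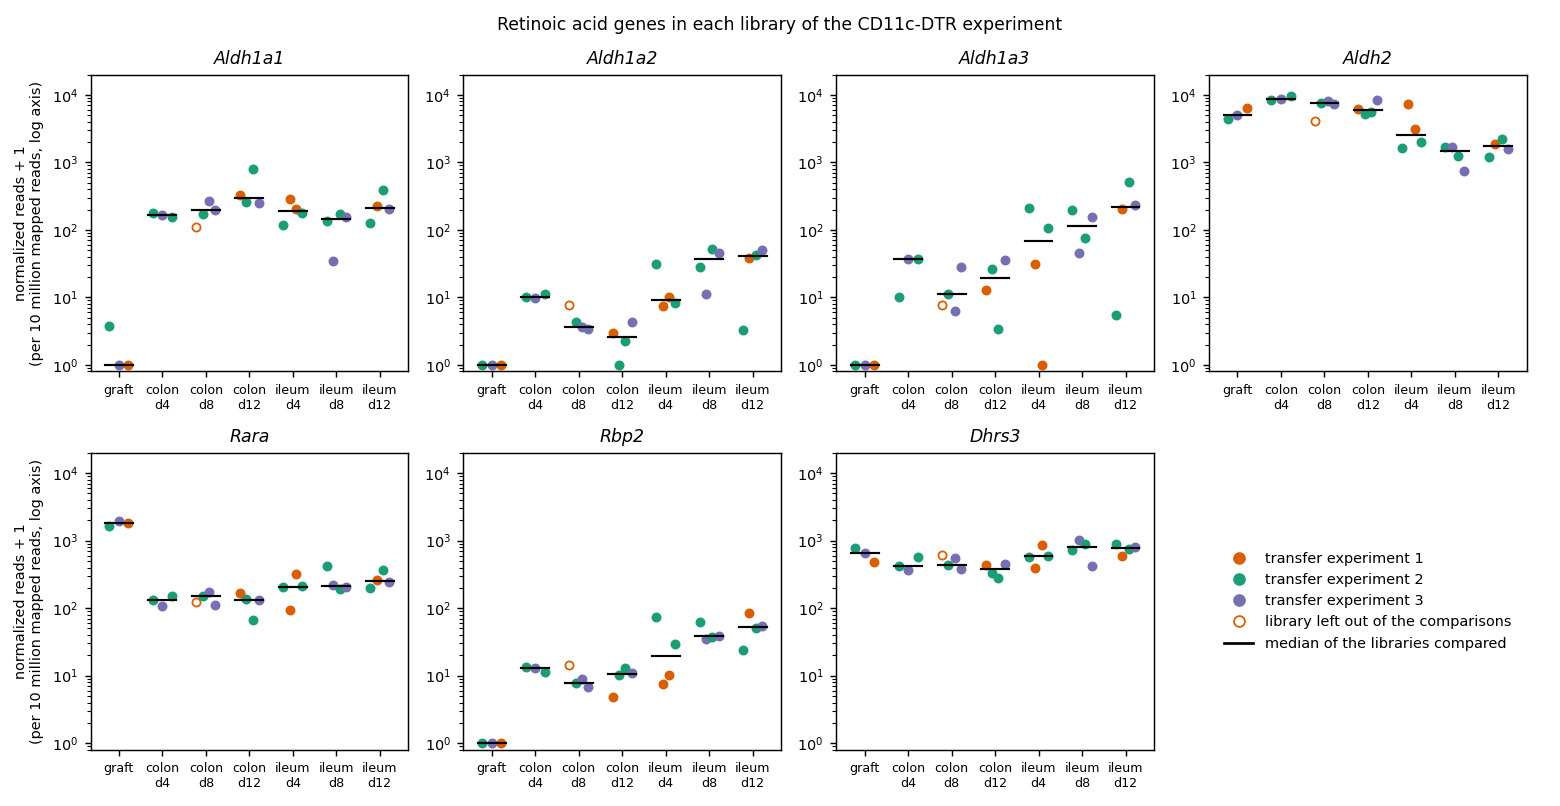
Each point is 1 chimera library, placed by normalized reads plus 1 per 10000000 mapped reads on a log axis, for the 7 genes in the graft, colon and ileum by day, with the transfer experiment in colour, the median as a line and the library left out as an open circle. Aldh1a1, Aldh1a2, Aldh1a3 and Rbp2 sit at or near 0 in the graft, Rara sits highest there (1625 to 1974), and Aldh2 separates colon from ileum at days 8 and 12.

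Aldh2, which clears acetaldehyde and related aldehydes in mitochondria, was abundant in the graft, rose in colon at day 4 and was lower in ileum. The graft held 4441, 5094 and 6289 normalized reads. Colon held 8478, 8666 and 9464 at day 4, 7490, 7998 and 7366 at day 8, and 6245, 5185, 5498 and 8434 at day 12. Ileum held 1628, 7368, 3124 and 1983 at day 4, 1662, 1702, 1255 and 741 at day 8, and 1189, 1887, 2197 and 1603 at day 12. At each day every colon library lay above every ileum library.

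From the graft, Aldh2 rose by a log2 fold change of 1.08 ± 0.39 at colon day 4 (adjusted p = 0.0193), a call lost without graft replicate 1 (0.96, adjusted p = 0.0732) or 2 (1.05, adjusted p = 0.0558), while the values at day 8 (0.78 ± 0.39, adjusted p = 0.0868) and day 12 (0.63 ± 0.36, adjusted p = 0.138) did not pass. In ileum Aldh2 fell by 1.47 on the log2 scale at day 8 (SE 0.36, adjusted p = 0.00137) and by 1.16 at day 12 (SE 0.36, adjusted p = 0.00796). Per read of the 5 pan-leukocyte genes these directions turned, and ileum lay above the graft by 0.70 on the log2 scale at day 8, with no overlap of libraries, and by 0.82 at day 12, with overlap. The ileum day 4 value was -0.16 ± 0.36 (adjusted p = 0.732), and without the 2 libraries that stood apart it was -1.18 (adjusted p = 0.00192), as it was past the threshold without replicate 2 alone (-0.76, adjusted p = 0.0343). Colon minus ileum was 1.24 ± 0.36 at day 4 (adjusted p = 0.0538, and 0.0457 without ileum day 12 replicate 1), 2.25 ± 0.36 at day 8 (adjusted p = 0.000225) and 1.79 ± 0.34 at day 12 (adjusted p = 0.000743). Leaving out the same 2 libraries gave 2.26 at day 4 (adjusted p = 3.72e-05, edgeR), and leaving out the library labelled ileum day 4 replicate 2 alone gave 1.85 (adjusted p = 0.000712). With a block by transfer experiment the day 4 difference was 1.60 (adjusted p = 0.0137) and the change from the graft to colon day 8 was 0.93 (adjusted p = 0.0356). DESeq2 called the day 4 difference too (1.26, adjusted p = 0.0145). The colon day 8 change passed in 4 other fits, with the compared groups alone (adjusted p = 0.00190), by the equal-variance test (0.0392), without the 2 libraries that stood apart (0.0101) and without the first of them alone (0.0265), and that of day 12 passed without both (0.0249).

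At days 8 and 12 the epithelial genes, like Aldh2, were higher in colon than in ileum. Per 1000 reads of the 15 epithelial genes, Aldh2 was at 75333 to 144278 in the graft, where such reads were few. In colon this ratio was 49.8 to 51.9 at day 4, and in ileum 21.8 to 51.8. At day 8 it was 42.1 to 44.2 in colon and 19.9 to 59.4 in ileum. At day 12 it was 34.3 to 57.3 in colon and 35.9 to 53.8 in ileum. The log2 difference on this scale was -0.01 (exact two-sided permutation p = 1), against 0.41 at day 8 (exact p = 0.4) and 0.32 at day 4 (exact p = 0.343). With 3 libraries against 4 the smallest p this permutation test can give is 0.0571, and with 4 against 4 it is 0.0286. The part of the epithelial reads in the Aldh2 difference was not tested further.

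**Figure D2:**
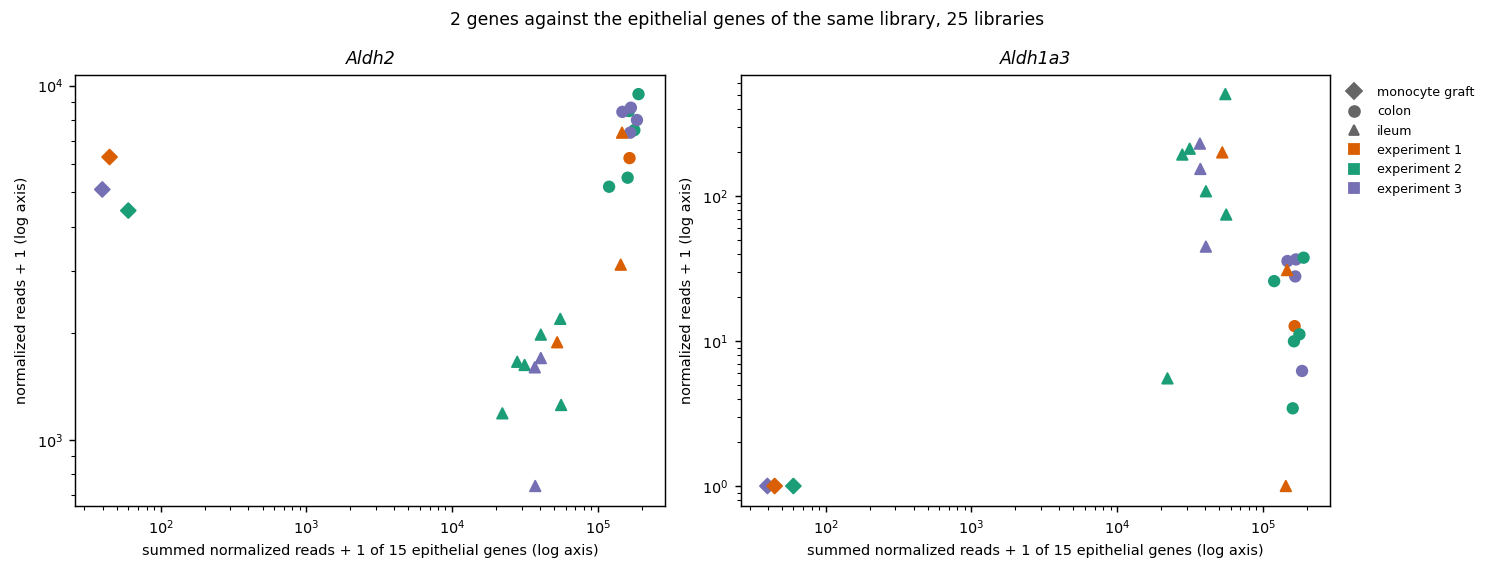
Each point is 1 of the 25 chimera libraries, with the summed normalized reads plus 1 of 15 epithelial genes on the x axis and Aldh2 or Aldh1a3 normalized reads plus 1 on the y axis, both log axes, with shape for the tissue and colour for the transfer experiment. Among gut libraries Aldh2 is high in colon, where the epithelial sum is high, and in the ileum library at 146484. The ileum library at 143541 lies below every colon library for Aldh2. Aldh1a3 is higher in most ileum libraries despite their lower epithelial sum.

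Rara, the retinoic acid receptor alpha that binds DNA together with retinoid X receptors, fell in every gut group. The graft held 1625, 1974 and 1845 normalized reads. Colon held 129, 107 and 150 at day 4, 152, 175 and 110 at day 8, and 169, 134, 65.8 and 132 at day 12. Ileum held 201, 93.9, 323 and 214 at day 4, 417, 222, 191 and 204 at day 8, and 197, 263, 367 and 241 at day 12. The highest library of days 4 to 12, ileum day 8 replicate 1, remained far below the lowest graft library.

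The log2 fold change of Rara from the graft was -3.48 ± 0.38 at colon day 4 (adjusted p = 4.56e-08), -3.40 at day 8 and -3.54 at day 12, and -2.74 ± 0.34 (adjusted p = 3.93e-07), -2.25 and -2.30 in ileum at the same days, all called by edgeR. Colon was lower than ileum at day 8 (-1.15 ± 0.34, adjusted p = 0.0127) and day 12 (-1.24 ± 0.31, adjusted p = 0.00436) with no overlap of libraries, and at day 4 the difference was -0.75 ± 0.35 (adjusted p = 0.217). The day 8 difference was not called without colon replicate 4 (adjusted p = 0.0740) or ileum replicate 1 (adjusted p = 0.0635), and that of day 4 was without the library labelled ileum replicate 2 (-1.04, adjusted p = 0.0291). By the equal-variance test neither day 8 nor day 12 passed (adjusted p = 0.192 and 0.0592). These directions depended on what the reads were scaled to. Per read of the 5 pan-leukocyte genes, Rara was higher in colon than in the graft by 0.96, 0.97 and 0.69 on the log2 scale at days 4, 8 and 12, lower in ileum (-0.44, -0.14 and -0.34), and higher in colon than in ileum by 1.11 at day 8 and 1.02 at day 12. Colon days 4 and 8 did not overlap the graft on this scale and sat at the smallest p that an exact permutation test of 3 libraries against 3 can give (0.1), while in the other 6 of these comparisons the libraries overlapped (exact p 0.114 to 0.743).

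Rbp2, the retinol-binding protein of absorptive enterocytes, was at 0 in the graft and higher in ileum than in colon. Colon held 12.5, 11.9 and 10.2 normalized reads at day 4, 6.75, 7.83 and 5.85 at day 8, and 3.89, 9.34, 12.2 and 9.9 at day 12. Ileum held 72.6, 6.4, 9.22 and 28.5 at day 4, 62.4, 33.7, 36.8 and 37.4 at day 8, and 22.6, 82.7, 49.4 and 53.2 at day 12. At days 8 and 12 every ileum library exceeded every colon library, and at day 4 the 2 low ileum values were those of the libraries that stood apart.

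The edgeR log2 difference of Rbp2, colon minus ileum, was -1.49 ± 0.68 at day 4 (adjusted p = 0.202), -2.92 ± 0.70 at day 8 (adjusted p = 0.00352) and -2.54 ± 0.58 at day 12 (adjusted p = 0.00269). Without those 2 libraries it was -2.27 at day 4 (adjusted p = 0.00816), and without replicate 2 alone -1.95 (adjusted p = 0.0331). Against the floor in the graft, Rbp2 was at least 1.61-fold higher at colon day 4 and 1.23-fold at day 12, and at least 4.07-fold, 5.94-fold and 7.25-fold higher at ileum days 4, 8 and 12. Colon day 8 did not exceed the floor. In all, the colon groups held 16, 10 and 21 reads of Rbp2 at days 4, 8 and 12, and edgeR called each of them above the graft. The ileum day 4 call was lost by the equal-variance test (adjusted p = 0.171). The 12 small intestinal enterocyte genes summed to 1547 to 7006 normalized reads in colon and 4120 to 36852 in ileum, and their part in the Rbp2 difference was not tested.

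The 110 bases before the Rbp2 start are shown because, of the 7 windows searched (250 bases before to 50 after the RefSeq start in the deposited table), only this one held either of the 2 nuclear receptor hexamers searched, AGGTCA and AGTTCA on both strands (mm9, chr9:98390846-98390955, plus strand), with the hexamers, which lie on the minus strand, in capitals.
Rbp2: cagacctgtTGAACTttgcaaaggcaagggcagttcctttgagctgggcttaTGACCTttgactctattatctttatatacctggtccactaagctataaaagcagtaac
AGTTCA began at position -101 and AGGTCA at -58 from the start. Of 24340 such windows over the genes of that table, 14.3% held AGGTCA and 12.8% held AGTTCA. Direct repeats of such hexamers spaced by 5 or 2 bases, the usual retinoic acid response elements, occurred in 0.0657% of windows each, and in none of the members' windows.

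Dhrs3, a retinal reductase whose expression retinoic acid is known to induce, changed little from the graft and was higher in ileum than in colon at days 8 and 12. The graft held 783, 645 and 475 normalized reads. Colon held 427, 362 and 575 at day 4, 436, 553 and 373 at day 8, and 442, 327, 277 and 452 at day 12. Ileum held 581, 389, 866 and 599 at day 4, 735, 1008, 883 and 421 at day 8, and 887, 594, 744 and 813 at day 12. At day 12 every ileum library exceeded every colon library, and at day 8 only ileum replicate 4 lay among the colon values.

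The edgeR log2 difference of Dhrs3, colon minus ileum, was -0.53 ± 0.28 at day 4 (adjusted p = 0.280), -1.01 ± 0.28 at day 8 (adjusted p = 0.00878) and -1.17 ± 0.26 at day 12 (adjusted p = 0.00188). The day 8 value was -0.91 without colon replicate 4 (adjusted p = 0.0513), -0.76 with the colon library that had been left out (adjusted p = 0.0508) and -0.64 by the equal-variance test (adjusted p = 0.224). From the graft, the ileum values were 0.39 ± 0.28 (adjusted p = 0.250), 0.78 ± 0.28 (adjusted p = 0.0222) and 0.76 ± 0.28 (adjusted p = 0.0245), and no colon day passed (-0.14, -0.23 and -0.41). The 2 ileum calls did not hold without TMM (adjusted p = 0.0754 and 0.0780) or by the equal-variance test (0.629 and 0.342), nor without graft replicate 2 or 3 (0.0564 to 0.119), ileum day 8 replicate 2 or 3 (0.0547 and 0.0536) or ileum day 12 replicate 1 or 4 (0.0671 and 0.0653). With TMM, the median of all genes tested stood 0.20 to 0.24 above the graft on the log2 scale in the 6 gut groups, without it 0.02 to 0.17, and the ileum and graft libraries of Dhrs3 overlapped. In normalized reads within single experiments, ileum minus graft ranged from -0.41 to 0.33 on the log2 scale, on either side of 0.

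**Figure D3:**
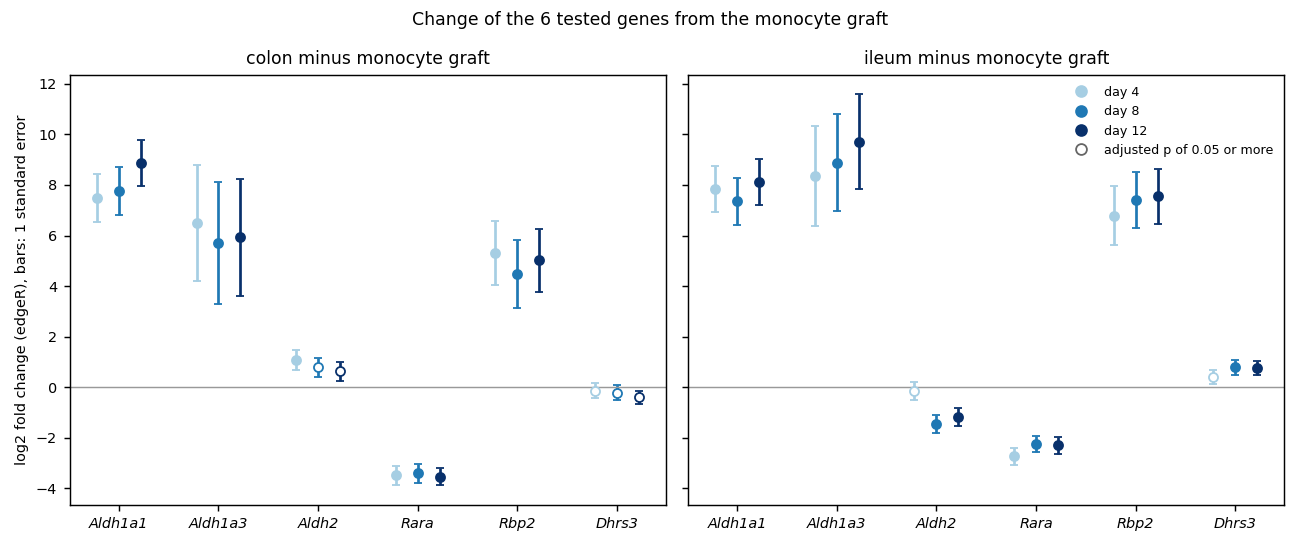
Points are edgeR log2 fold changes from the monocyte graft of the 6 genes tested, with bars of 1 standard error, for colon on the left and ileum on the right, by day, and open points have an adjusted p of 0.05 or more. Aldh1a1, Aldh1a3 and Rbp2 lie far above 0 in both segments, Rara lies below 0 throughout, and Aldh2 lies above 0 in colon and below 0 in ileum. The colon values of Aldh1a3 and Rbp2 rest on few reads against 0 in the graft, so their size is uncertain.

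Counted over the members, 5 of 6 tested were called from the graft to colon day 4 (4 higher, 1 lower), where 60.4% of all genes were called (35.9% higher, 24.5% lower). The counts were 4 of 6 at colon day 8 (59.1% of all genes) and 4 of 6 at day 12 (62.6%). In ileum they were 4 of 6 at day 4 (56.7%), 6 of 6 at day 8 (53.9%) and 6 of 6 at day 12 (55.9%). These 6 comparisons share the 3 graft libraries, and in each of them most of the genes tested were called as well. Between colon and ileum, 0 of 6 were called at day 4 (3.18% of all genes), 5 of 6 at day 8 (35.0%, with 16.7% higher in colon and 18.3% lower) and 5 of 6 at day 12 (32.5%, with 15.3% and 17.2%). On both later days Aldh2 was higher in colon, Aldh1a3, Rara, Rbp2 and Dhrs3 were higher in ileum, and Aldh1a1 was not called. Within each transfer experiment that held both segments, mean log2 levels at these days differed in the same directions, by 1.72 to 2.77 for Aldh2, -1.51 to -0.62 for Rara, -4.10 to -1.56 for Rbp2 and -1.43 to -0.43 for Dhrs3. The median log2 difference of the 6 genes was -1.08 at day 8 and -1.20 at day 12, where that of all genes was -0.05 and -0.01. The genes were chosen with earlier results of these data known, so these counts and medians describe them and test nothing about the set.

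Scaling to epithelial reads, which colon libraries held in excess, moved the segment differences of the members downward, and scaling to pan-leukocyte reads moved them upward. Per epithelial read at day 12, colon minus ileum was -4.86 for Aldh1a3, -4.29 for Rbp2, -3.03 for Rara, -2.94 for Dhrs3 and -1.17 for Aldh1a1 on the log2 scale. The first 4 of these had no overlap of libraries, at the smallest exact permutation p the design allows (0.0286, adjusted 0.126 over 42 comparisons). Per pan-leukocyte read the day 12 differences were -0.80 for Aldh1a3, -0.24 for Rbp2, 1.02 for Rara, 1.121 for Dhrs3, 2.89 for Aldh1a1 and 4.05 for Aldh2. Of the 6 members tested, Aldh1a3 and Rbp2 were lower in colon at days 8 and 12 under all 3 scalings, as was Aldh1a2 in the fit without the filter (-5.12 and -5.16 per epithelial read, -1.07 and -1.10 per pan-leukocyte read). The libraries of all 3 genes overlapped on the pan-leukocyte scale.

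**Figure D4:**
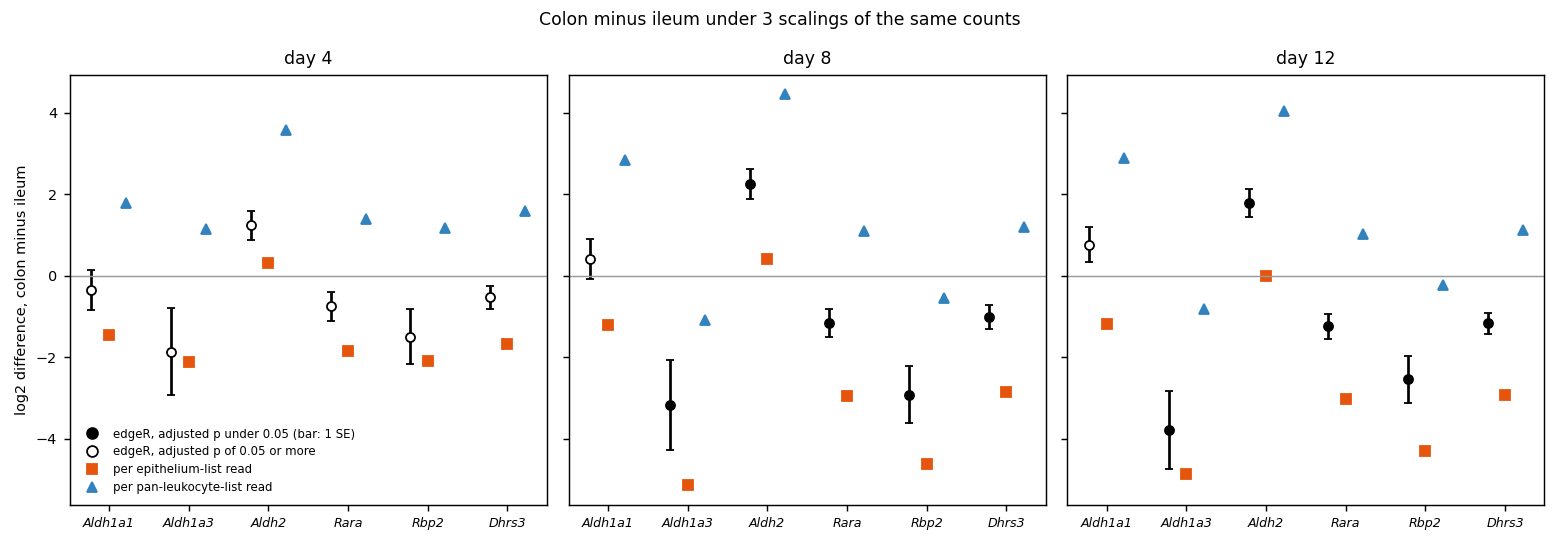
The log2 difference of colon minus ileum is shown for 6 genes at days 4, 8 and 12 as fitted by edgeR (circles with 1 standard error, filled where the adjusted p is under 0.05), per read of 15 epithelial genes (squares) and per read of 5 pan-leukocyte genes (triangles). At day 12 Aldh2 moves from 1.79 to -0.01 and 4.05, and Rara from -1.24 to -3.03 and 1.02.

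The CX3CR1-DTR colon libraries were set against the graft and colon day 12 in reads per 10000000 reads on genes, and they differed from colon day 12 in table, sequencing run, recipient and day at once, which cannot be told apart. Aldh1a1 was all but absent there. It held 479, 433, 1427 and 440 at colon day 12, and a lowest of 0, a median of 1.42 and a highest of 9.48 in the 6 CX3CR1-DTR libraries, so that the groups lay far apart. The edgeR log2 fold change from colon day 12 was -7.40 ± 0.61 (adjusted p = 1.75e-07), and Aldh1a7 changed likewise (-5.66 ± 0.41, adjusted p = 2.09e-07). The 15 epithelial genes were as abundant in CX3CR1-DTR colon (239235 to 291924) as in colon day 12 (202697 to 285406), and per epithelial read the Aldh1a1 difference was -7.19. Other lists shifted between these groups. The small intestinal enterocyte genes summed to 404 to 735 against 2265 to 12490 at colon day 12. Pan-leukocyte genes summed to 1101 to 3497 against 2189 to 7585, and goblet cell genes to 132418 to 181865 against 87945 to 139783. The part of cell makeup in the Aldh1a1 difference was not tested.

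Aldh2 was higher in CX3CR1-DTR colon, with a lowest of 16463, a median of 24134 and a highest of 29908, than at colon day 12 (9144, 8801, 9802 and 14988) or in the graft (6463, 7224 and 9145). The groups did not overlap, and the log2 fold changes were 1.14 ± 0.22 from colon day 12 (adjusted p = 0.000477) and 1.95 ± 0.26 from the graft (adjusted p = 8.70e-06, edgeR). Rara held a lowest of 270, a median of 352 and a highest of 515 in CX3CR1-DTR colon, below the graft (2365, 2800 and 2683) and above colon day 12 (248, 227, 117 and 234). The changes were -2.51 ± 0.24 from the graft (adjusted p = 2.93e-07) and 0.85 ± 0.24 from colon day 12 (adjusted p = 0.00725), but the 2 tables name different Rara transcripts.

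Dhrs3 held a lowest of 221, a median of 1149 and a highest of 1362 in CX3CR1-DTR colon against 647, 555, 493 and 803 at colon day 12, a log2 fold change of 0.67 ± 0.36 (adjusted p = 0.127). Replicate 1 set the lowest value, and without it the change was 0.89 (adjusted p = 0.000729, edgeR) and that from the graft 0.53 (adjusted p = 0.0265), which was 0.43 ± 0.40 with it (adjusted p = 0.335). Aldh1a2 (0 to 22), Aldh1a3 (0 in 5 libraries and 14.2 in the other) and Rbp2 (13.6 to 65.4) were below the filter of this comparison. Of the 4 members tested, 2 were called from the graft, where 75.5% of all genes were called, and 3 from colon day 12, where 60.7% were.

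**Figure D5:**
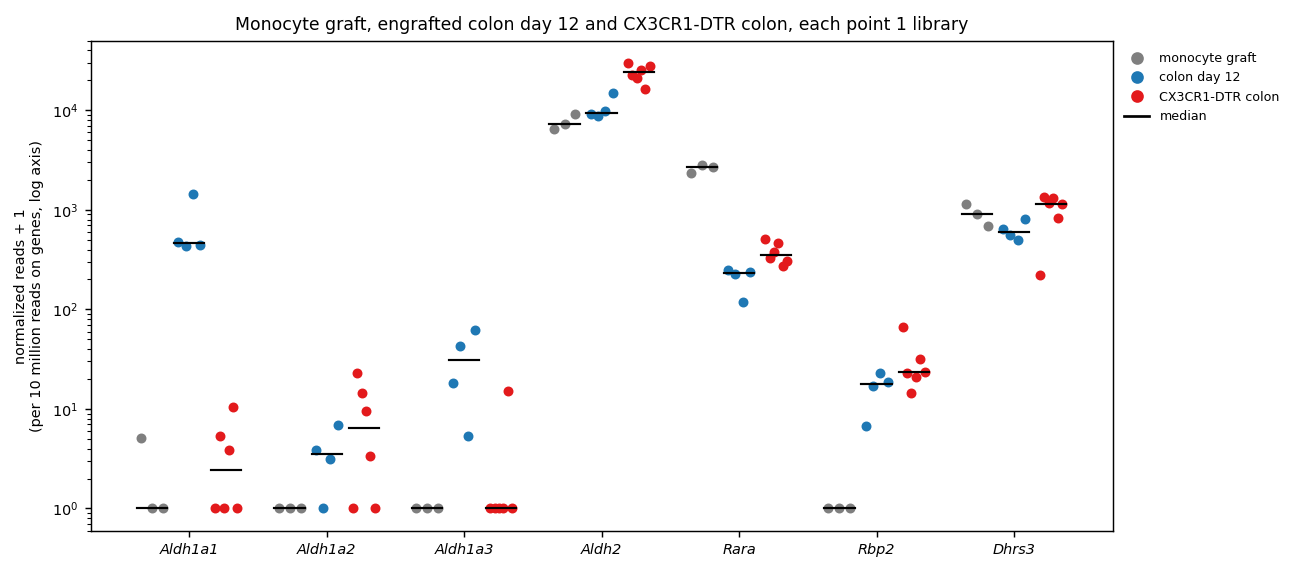
Each point is 1 library, placed by reads plus 1 per 10000000 reads on genes on a log axis, for the 7 genes in the monocyte graft, colon day 12 and CX3CR1-DTR colon, with lines at the median. Aldh1a1 falls from between 433 and 1427 at colon day 12 to between 0 and 9.48 in CX3CR1-DTR colon, while Aldh2 is highest there.

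The further pathway lists held 76 genes in the table, of vitamin A handling and response but also other aldehyde dehydrogenases and general coregulators. Of these, 56 could be tested. At colon day 4, 34 were higher and 12 lower than in the graft (35.9% and 24.5% of all genes, median log2 fold change 2.21, all genes 0.21). Between colon and ileum the counts were 2 higher and 6 lower at day 4 (0.524% and 2.66% of all genes). They were 16 and 16 at day 8 (16.7% and 18.3%), and 12 and 14 at day 12 (15.3% and 17.2%). Among 11 tested genes of retinol uptake, transport and storage, 8 rose and 2 fell at colon day 4 (35.9% and 24.5% of all genes). Ttr, the plasma carrier of retinol-binding protein, went from 0 to 2.81 normalized reads in the graft to 551 to 581, and Retsat, retinol saturase, from 53.3 to 71.7 to 504 to 575, while Fabp5, a fatty acid and retinoic acid carrier, went from 296 to 561 down to 50.2 to 59. Ces1d, a carboxylesterase, rose by 8.27 ± 1.03 on the log2 scale. At colon day 4 all 15 epithelial genes rose from the graft (median log2 fold change 12.8), and all 5 pan-leukocyte genes fell (median -4.24). Their part in the changes from the graft, here and in the lists below, was not tested.

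Among 13 retinol and retinal dehydrogenases and reductases, 9 rose and 1 fell at colon day 4 (35.9% and 24.5% of all genes), and 5 were higher and 0 lower in colon than in ileum at days 8 (16.7% and 18.3%) and 12 (15.3% and 17.2%). Of the 15 epithelial genes, 10 were higher in colon at day 8 and 14 at day 12, and their part in these differences was not tested. Adh1, a retinol-oxidising alcohol dehydrogenase, stood at 5025 to 11560 normalized reads in colon and 183 to 932 in ileum at day 12 (3.91 ± 0.57, adjusted p = 0.000214). Rdh16 (3.52 ± 0.75) and Akr1b8 (2.93 ± 0.49) differed in the same direction at day 12, and Rdh14, a retinal reductase, at day 8 (1.18 ± 0.32). Among 13 other aldehyde dehydrogenases, 8 rose and 2 fell at colon day 4 (35.9% and 24.5% of all genes). Aldh1l1, of folate metabolism, rose by 8.64 ± 0.61 and Aldh1b1 by 1.47 ± 0.37, while Aldh3b1 fell by 4.18 (SE 0.44) and Aldh9a1 by 0.73 (SE 0.32) on the log2 scale.

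Among 9 tested retinoid receptors and coregulators, 1 rose and 5 fell at colon day 4 (35.9% and 24.5% of all genes). Rarg, the retinoic acid receptor gamma, was at 320 to 339 normalized reads in the graft and at 37.6 to 71.2 at colon day 4 (-2.21 ± 0.56, adjusted p = 0.00168). The coactivator Ncoa3 fell by 1.14 on the log2 scale, and Nrip1, a corepressor that retinoic acid induces, rose by 1.39 ± 0.30. All 5 pan-leukocyte genes fell in that comparison too (median log2 fold change -4.24), and their part in the falls of receptors and coregulators was not tested. Of 12 tested genes known to respond to retinoic acid, 10 were higher and 2 lower than the graft at day 4 in both segments (35.9% and 24.5% of all genes in colon, 36.2% and 20.5% in ileum). Rarres2, an adipokine gene, rose by 10.29 ± 1.43 at colon day 4. In colon 0 were higher and 9 lower than in ileum at day 8 (16.7% and 18.3% of all genes), and 0 and 7 at day 12 (15.3% and 17.2%).

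Of the 4 response genes named by rule, Ccr9, Cyp26b1 and Hic1 were higher in ileum at days 8 and 12 and Rarres2 at day 8 alone. Ccr9, the gut homing receptor of lymphocytes, was at 1.95 to 15.6 normalized reads in colon and 248 to 631 in ileum at day 12 (-5.38 ± 0.96, adjusted p = 0.000577). Cyp26b1, the hydroxylase that degrades retinoic acid, was at 11.7 to 41.2 and 122 to 502 (-3.79 ± 0.85, adjusted p = 0.00230), and Hic1, a transcriptional repressor, at 56.1 to 193 and 291 to 1143 (-2.63 ± 0.52, adjusted p = 0.00110, edgeR). At day 4 colon minus ileum was -3.71 for Ccr9 (adjusted p = 0.0463), and Cyp26b1 and Hic1 did not pass. Rarres2 was at 0.09 ± 0.63 at day 4 (adjusted p = 0.959), -1.92 ± 0.67 at day 8 (adjusted p = 0.0297) and -1.10 ± 0.58 at day 12 (adjusted p = 0.154), with overlap of libraries on each day. Pan-leukocyte, dendritic cell and small intestinal enterocyte genes were also higher in ileum, as given above, and their part in these differences was not tested.

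As a description over the 25 chimera libraries, which share tissue, day and cell makeup, the genes most like each member in log2 normalized reads (with 50 added) were Prnp, Tubal3 and Akr1c19 for Aldh1a1 (Pearson r 0.91, 0.90 and 0.88), and Mmp10, Hoxc4 and Gm12216 for Aldh1a3 (0.95, 0.95 and 0.94). For Aldh2 they were S100a6, Exosc6 and Aldoa (0.95 each), for Rara Camkk2, Chst12 and Grk5 (0.97, 0.97 and 0.96), for Rbp2 Cd3d, Mttp and Mogat2 (each 0.96), and for Dhrs3 Jdp2, Plxna4os1 and Grina (0.83, 0.83 and 0.82). Among the members, Aldh1a3 and Rbp2 were most alike (0.88) and Aldh1a1 and Rara least (-0.81).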

How the data were processed

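Libraries were prepared with a derivation of MARS-seq, a 3′ method. According to the methods and the submitters' processing notes, the authors mapped reads to mm9 with HISAT 0.1.6, kept unique reads and counted sense-strand exon reads per gene with HOMER. The deposited values are raw counts in 2 tables, and HOMER's version and any collapse of molecular identifiers are not given in the sources used here. The second table held 52 further columns of values that match no sample and were not used. The 7 genes and all pathway and marker lists were chosen with earlier results of these data known.

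Counts were scaled to 10000000 mapped reads, or to 10000000 reads on genes for anything set against CX3CR1-DTR colon. A gene was tested where 3 or more libraries reached 50 normalized reads. The test was the quasi-likelihood F test of edgeR 4.0.16 (R 4.3.3) with TMM scaling, p-values were adjusted over all genes tested by the Benjamini-Hochberg method, and a gene was called under 0.05. One fit held 25 libraries in 7 groups (11842 genes) and a second held the graft, colon day 12 and CX3CR1-DTR colon (11718 genes). Standard errors were obtained from each log2 fold change and its F statistic. The step was tested on simulated data. Alternatives were DESeq2 1.42.0, an equal-variance test per gene, no TMM, no filter, the compared groups alone, each library left out and a block by transfer experiment. Scaling to epithelial and to pan-leukocyte reads was added after seeing the data, with exact two-sided permutation tests (scipy 1.17.1). The 3 experiments come from dates in the sample titles, 1 of which was read with its year corrected. Deviations from group means correlated with a median of 0.020 in 96 same-experiment pairs of libraries and -0.0089 in 171 other pairs. The reported fits have no block, and the block by these experiments was run as an alternative. Replicate numbers follow accession order. The colon day 8 library of the first experiment (replicate 1) was left out because the study lists 3 repeats of this group and names the other 3 libraries, by their scaling factors, in its source data. For CX3CR1-DTR colon, where fewer repeats are listed too but not named, all 6 libraries were kept. No 2 libraries of a group were alike within sampling noise. Intervals and floors (3 reads) cover counting error only.

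Genes were named by rule: the 7 members, Aldh1a7, up to 4 genes per pathway list with the largest called change between the graft and day 4 or between segments (a mean of at least 200 normalized reads, no overlap of libraries), and the 3 genes most correlated with each member. One gene that this rule names in the list of receptors and coregulators is not reported here. Sequences were read from the mm9 genome (biopython 1.88), with GENCODE vM1 starts for Aldh1a1 and Aldh1a7 and the deposited table's RefSeq starts for Rbp2 and the motif counts.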

Additional observations from a re-analysis of the deposited data

Results flagged for a closer look

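Of the members' library values, 6 lay far from the rest of their group by Dixon's test over 35 groups, and chance marks about 1 in 20 groups. They were Aldh1a1 at 800.4 normalized reads in colon day 12 replicate 3, Aldh1a2 at 29.7 in ileum day 4 replicate 1, Rara at 417 in ileum day 8 replicate 1 and Rbp2 at 62.4 in the same library. In CX3CR1-DTR colon they were Aldh1a3 at 14.2 in replicate 5 and Rbp2 at 65.4 in replicate 1.

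The change from the graft differed between colon and ileum for 5 genes by edgeR. Both segments share the graft, which cancels, so these values are the colon minus ileum differences given above and no further test. At day 8 colon minus ileum was -3.17 for Aldh1a3, 2.25 for Aldh2, -1.15 for Rara, -2.92 for Rbp2 and -1.01 for Dhrs3 on the log2 scale. At day 12 it was -3.79, 1.79, -1.24, -2.54 and -1.17. The colon day 8 library that entered no comparison held 107 normalized reads of Aldh1a1, above the graft libraries (0 to 2.81).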

How the results depend on the processing

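Leaving out 1 library at a time moved the members called between 0 and 3 for colon against ileum at day 4, 3 and 5 at day 8 and 5 and 5 at day 12, between 3 and 5 from the graft to colon day 4, 3 and 5 at day 8 and 3 and 4 at day 12, between 4 and 5, 5 and 6, and 5 and 6 in ileum, and between 0 and 2 from ileum day 4 to day 12. The count of 3 at colon day 4 was without graft replicate 2, that of 3 at day 4 between segments without ileum day 4 replicate 2, and that of 3 at day 8 without colon replicate 4 or ileum replicate 1. The equal-variance test per gene called 2 members from the graft to ileum day 4 and, between colon and ileum, 2 at day 8 and 3 at day 12. Between segments at day 4, DESeq2 called 1, the fit without the 2 ileum libraries that stood apart 2, and the replicate block by transfer experiment 1, and without the low-count filter 4 of the members were called from the graft to CX3CR1-DTR colon. The block changed the calls named for Aldh2 and Aldh1a3 and no other call of a member.

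Some directions turned. Per pan-leukocyte read, the change from the graft was 0.96, 0.97 and 0.69 for Rara and 4.30, 4.15 and 3.85 for Dhrs3 in colon at days 4, 8 and 12, 1.96, 0.70 and 0.82 for Aldh2 in ileum, and 2.50 for Rara in CX3CR1-DTR colon. Colon minus ileum on that scale at day 4 was 1.79 for Aldh1a1, 1.15 for Aldh1a3, 1.40 for Rara, 1.16 for Rbp2 and 1.59 for Dhrs3, and for Rara and Dhrs3 it was 1.11 and 1.19 at day 8 and 1.02 and 1.121 at day 12. Per epithelial read it was -1.21 and -1.17 for Aldh1a1 at days 8 and 12 and -0.012 for Aldh2 at day 12, and the change from day 4 to day 12 was 0.13 for Rara in colon and 0.066 for Aldh2 in ileum, with -0.14 for Aldh1a1 in ileum per pan-leukocyte read. Without the 2 ileum day 4 libraries Aldh1a1 was at 0.14 between segments at day 4, and Aldh2 and Rbp2 at 0.0051 and -0.021 from ileum day 4 to day 12. The equal-variance test gave Dhrs3 -0.078 at ileum day 4 and -0.019 in CX3CR1-DTR colon, and adding the colon day 8 library gave it 0.025 at colon day 8. None of the turned values had an adjusted p under 0.05, and group size bounds the permutation tests, as given above. Single libraries moved Dhrs3 between -0.33 and 0.018 at colon day 4, Aldh2 between -0.76 and 0.078 at ileum day 4, Rara between -0.15 and 0.13 and Rbp2 between -0.58 and 0.012 from colon day 4 to day 12, and Aldh1a1 between -0.027 and 0.51 from ileum day 4 to day 12. The causes were not tested. Depth limits Aldh1a2, Aldh1a3 and Rbp2 in colon, where most libraries held few reads of them.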
